A study of Mus musculus with 9 samples.

Results

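The insulin-like growth factor (IGF) system was followed in C2C12 cells, an established mouse myoblast line that fuses into multinucleated fibres when serum is low. It was taken as 10 genes chosen by symbol: the ligands Igf1 and Igf2, the receptors Igf1r and Igf2r, and the binding proteins Igfbp2 to Igfbp7. All 10 were present among the 24063 gene symbols of the count tables. The study has 9 RNA-seq libraries in 3 groups of 3. All are wild-type cells differentiated in DMEM with 2% fetal bovine serum and labelled day 3. Fibres of the 1C-MIM group had 6 one-carbon metabolites in the medium (One-Carbon Metabolite Induced Medium), those of the scramble group had 6 metabolites unrelated to that network, and those of the control group had normal medium. Which metabolites these were, and at what dose, is not given in the labels. Nothing in the labels ties the replicate libraries to separate cultures, so each p-value reflects the spread among 3 libraries per group, which may be technical. The cells are 1 line, and no second line was analysed here.

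IGF1 and IGF2 are secreted growth factors that promote both the proliferation and the differentiation of muscle cells, and IGF2 made by the differentiating myoblast itself is a classic autocrine signal. Both act through IGF1R, a receptor tyrosine kinase that signals through insulin receptor substrates to PI3K and AKT. IGF2R, the cation-independent mannose 6-phosphate receptor, does not signal in this way but takes IGF2 to the lysosome. The binding proteins hold the ligands outside the cell, and proteases release the ligands by cutting them.

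In 1C-MIM fibres, both ligands, both receptors and Igfbp3, Igfbp4 and Igfbp5 were higher than in either scramble or control fibres. Igfbp2 was lower, and no difference was called for Igfbp6 or Igfbp7. Igfbp4 differed most, at 5.49-fold the control level, followed by Igfbp5 at 2.58-fold, Igf2 at 2.46-fold and Igfbp3 at 2.30-fold. Of the 10 genes, 7 were called higher and 1 lower against control by edgeR's quasi-likelihood test, a call being a Benjamini-Hochberg adjusted p below 0.05 over 14006 tested genes. The background was high, since 22.9% of the tested genes passed as higher and 24.3% as lower in that comparison. Against scramble the same count of 7 higher and 1 lower was found, beside 22.9% and 23.2% of the tested genes. The median log2 fold change of the 10 genes was 0.79 against control and 0.71 against scramble, while that of all tested genes was -0.01 and -0.00045.

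Library totals over the chosen transcripts ran between 29.0 M and 33.2 M counts, and each of the 10 genes had at least 869 counts in every library. The 6 fibre markers found in the files summed to 6810 to 8392 CPM (counts scaled to library size) in 1C-MIM, 5544 to 7056 CPM in scramble and 4881 to 7902 CPM in control. Their members went different ways: Myog and Ckm were called higher in 1C-MIM against both groups, Mylpf was called lower, and Myh3, Acta1 and Tnnt3 were not called. Myog, which encodes myogenin, averaged 852 ± 74 CPM in 1C-MIM and 366 ± 83 CPM in control, and Mylpf, a myosin light chain gene, 1703 ± 54 CPM in 1C-MIM and 2161 ± 141 CPM in control (SD, n = 3 each). All 6 markers of dividing myoblasts were called lower in 1C-MIM by edgeR, with sums of 584 to 718 CPM in 1C-MIM, 1174 to 1393 in scramble and 1090 to 1433 in control. Markers of reserve or satellite cells summed to 563 to 595 CPM in 1C-MIM, 482 to 502 in scramble and 433 to 481 in control, and Calcr of that list was at 0 in every library. In that list Heyl (224 ± 11 CPM in 1C-MIM, against 50.6 ± 10.3 in control) and Pax7 (39.4 ± 0.3 CPM in 1C-MIM, against 28.7 ± 2.3 in control) were called higher, Cd34 was called lower (48.1 ± 4.5 CPM in 1C-MIM, against 123 ± 12 in control), and Myf5 and Sdc4 were not called. Fibroblast markers summed to 1133 to 1266 CPM in 1C-MIM, 1266 to 1305 in scramble and 1064 to 1325 in control, with Pdgfra and Dpt called higher, Ly6a lower and Col1a1 not called. Endothelial and leukocyte lists stayed at or below 4.08 CPM in every library. In the endothelial list, Tek was called higher in 1C-MIM against both groups at a low level. It averaged 0.928 ± 0.164 CPM in 1C-MIM, 0.342 ± 0.069 in scramble and 0.299 ± 0.105 in control. Adipocyte markers summed to 83.0 to 92.2 CPM in 1C-MIM, 75.2 to 89.7 in scramble and 74.5 to 86.7 in control, nearly all of it Cebpa and Pparg, which were not called, while Adipoq and Plin1 stayed at or below 0.0626 CPM. Osteoblast markers summed to 63.3 to 65.8 CPM in 1C-MIM, 64.3 to 67.7 in scramble and 64.9 to 69.0 in control, nearly all of it Runx2, which was not called, while Ibsp stayed at or below 0.0341 CPM. Sp7 of that list was called lower in 1C-MIM at a low level. It averaged 0.046 ± 0.040 CPM in 1C-MIM, against 0.637 ± 0.089 in scramble and 0.512 ± 0.100 in control. Bglap, also low, was called lower against control only, at 0.115 ± 0.111 CPM in 1C-MIM and 0.432 ± 0.177 in control.

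In bulk RNA, fewer cells of a type and less RNA per cell cannot be told apart, and the part of these markers in the IGF results was not tested. In every group the library numbered 1 was the farthest from the other 2. The chi-square per degree of freedom in its pairs was 9.18 and 13.2 in 1C-MIM, 15.2 and 15.6 in scramble and 42.9 and 47.6 in control, against 4.18, 3.27 and 7.61 in the remaining pair of 1C-MIM, scramble and control. That library also had the highest fibre marker sum of its group, 8392 CPM in 1C-MIM, 7056 CPM in scramble and 7902 CPM in control.

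The promoters of the 4 binding protein genes whose levels differed are shown because Igfbp3, Igfbp4 and Igfbp5 were higher together while Igfbp2 was lower. Each is the 250 bases before a RefSeq start site, read 5′ to 3′ on the gene's strand (build GRCm38.p6), and capitals mark the motifs found. The windows are chr11:99040994-99041243 (+) for Igfbp4, chr1:72874866-72875115 (-) for Igfbp5, chr11:7213924-7214173 (-) for Igfbp3 and chr1:72824230-72824479 (+) for Igfbp2. Igfbp2 has a second RefSeq window, at chr1:72825137-72825386 (+), which is not printed.
Igfbp4: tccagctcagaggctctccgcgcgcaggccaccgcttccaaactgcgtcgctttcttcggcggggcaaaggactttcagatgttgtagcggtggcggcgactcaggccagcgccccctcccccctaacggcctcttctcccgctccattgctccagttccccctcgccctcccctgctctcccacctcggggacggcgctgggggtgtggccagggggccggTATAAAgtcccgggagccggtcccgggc
Igfbp5: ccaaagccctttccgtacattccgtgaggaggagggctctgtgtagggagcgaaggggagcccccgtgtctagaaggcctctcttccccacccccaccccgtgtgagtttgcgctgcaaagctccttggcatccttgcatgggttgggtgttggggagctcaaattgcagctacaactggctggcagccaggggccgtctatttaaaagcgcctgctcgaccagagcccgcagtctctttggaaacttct
Igfbp3: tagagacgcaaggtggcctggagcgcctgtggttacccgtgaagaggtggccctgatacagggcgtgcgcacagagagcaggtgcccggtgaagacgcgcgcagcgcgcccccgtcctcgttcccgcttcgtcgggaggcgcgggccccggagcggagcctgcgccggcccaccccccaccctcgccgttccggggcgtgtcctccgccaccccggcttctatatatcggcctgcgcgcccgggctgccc
Igfbp2: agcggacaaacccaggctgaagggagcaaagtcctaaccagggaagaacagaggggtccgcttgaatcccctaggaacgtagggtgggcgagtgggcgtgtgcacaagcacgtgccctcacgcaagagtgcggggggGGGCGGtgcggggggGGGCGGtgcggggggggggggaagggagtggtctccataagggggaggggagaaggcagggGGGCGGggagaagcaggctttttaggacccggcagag
The motifs searched on both strands were a TATA box (TATAAA), an E-box (CAGCTG), a GC box (GGGCGG) and a FoxO motif (GTAAACA), which can share only end bases with one another. Igfbp4 held 1 TATA box whose first base lay 28 bases before the start, a motif found in 12.4% of the 32851 RefSeq promoter windows of this length. Igfbp2 held 3 GC boxes, at 113, 98 and 37 bases before the start, a motif found in 32.7% of the windows, and its second window held none of the 4 motifs. Igfbp3 and Igfbp5 held none of the 4 motifs in these exact spellings. Variant spellings were not searched. The Igfbp3 window holds tatatat and the Igfbp5 window tatttaaa, AT-rich stretches that the search did not count. The GC content was 73.2% for Igfbp3, 69.2% for Igfbp4, 67.2% for Igfbp2 (56.4% in its second window) and 58.8% for Igfbp5, against a median of 52.4% over all windows. Of the other genes, Igf1r, Igf2r, Igfbp7 and 2 of the Igf2 windows held GC boxes, and Igf1 held 1 E-box at 157 bases. Igfbp6 held 1 match to the TATA box motif at 148 bases, on the strand opposite to the gene. The E-box was found in 13% of all windows, and the FoxO motif, found in 3.17%, was in no window of the 10 genes.

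**Figure D1:**
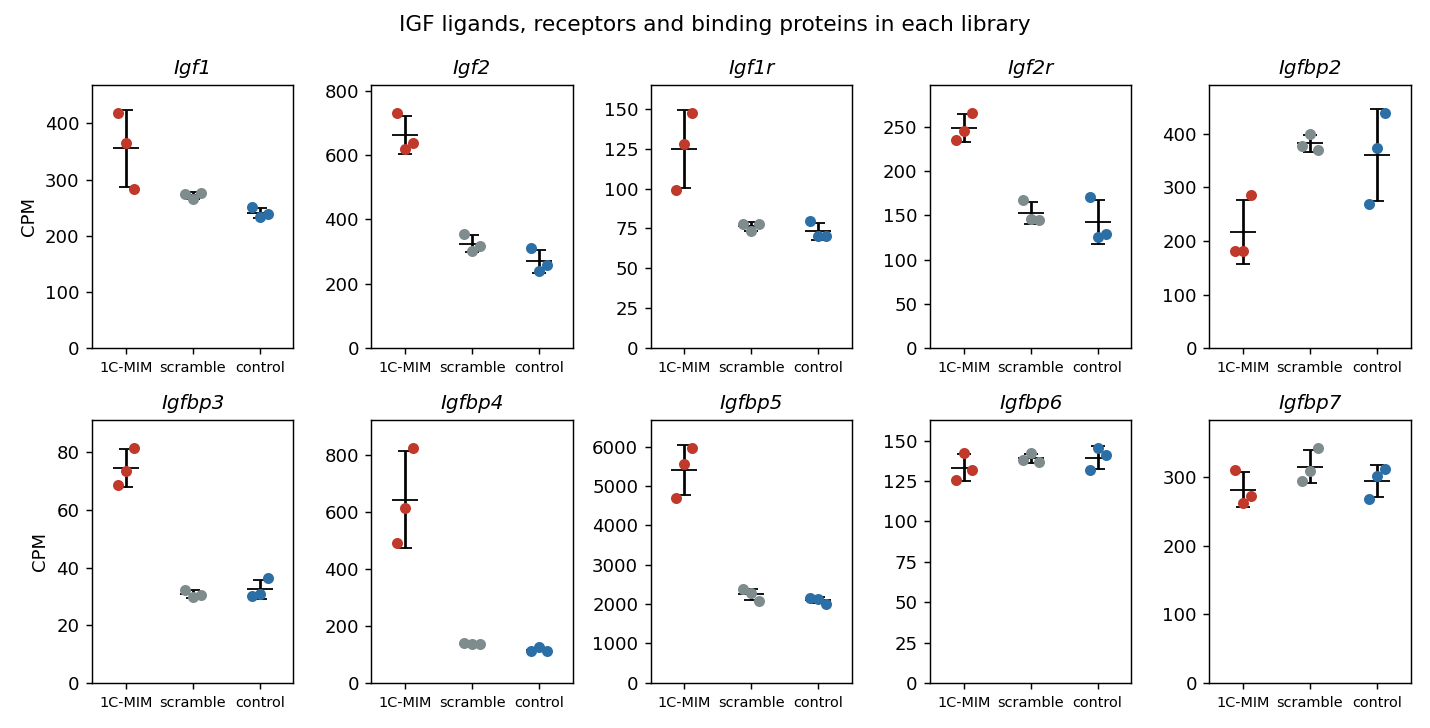
Library-scaled counts (CPM, linear axis from 0) of the 10 IGF genes in each of the 9 libraries, by group. Points are libraries, and the horizontal mark and bar are the mean and SD of 3 libraries. The 1C-MIM libraries lie above all others for Igf1, Igf2, Igf1r, Igf2r, Igfbp3, Igfbp4 and Igfbp5, and below all scramble libraries for Igfbp2.

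Igf2 had the larger difference of the 2 ligands. It measured 731, 621 and 638 CPM in the 1C-MIM libraries, 354, 303 and 317 CPM in the scramble libraries and 311, 239 and 259 CPM in the control libraries. Every 1C-MIM library lay above every scramble and control library, while the scramble and control values overlapped. Igf2 had a log2 fold change of 1.30 ± 0.10 (SE) against control, with an adjusted p of 6.3e-06 by edgeR, and 1.03 ± 0.10 against scramble, with an adjusted p of 2.6e-05 by edgeR. The 3 Igf2 transcripts in the files differed by at most 11 counts in any library, so the promoter in use was not resolved. A same-strand gene model, Gm49394, covers 3596 of the 5723 exon bases of Igf2 in the GENCODE annotation of GRCm38, and reads of the 2 cannot be told apart there.

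Igf1 was higher by a smaller step and varied more between the treated libraries. Its values were 418, 365 and 283 CPM in 1C-MIM, 275, 266 and 277 CPM in scramble and 251, 233 and 238 CPM in control. The lowest 1C-MIM library lay only just above the highest scramble library, and all 3 scramble libraries lay above all 3 control libraries. For Igf1 the log2 fold change was 0.56 ± 0.11 against control, with an adjusted p of 0.0023 by edgeR, and 0.38 ± 0.11 against scramble, with an adjusted p of 0.018 by edgeR. The call against scramble was lost when 1C-MIM library 1 was left out (log2 fold change 0.25, adjusted p 0.053), when 1C-MIM library 2 was left out (0.37, adjusted p 0.055) and when scramble library 2 was left out (0.37, adjusted p 0.058), all by edgeR. Without the 3 libraries numbered 1, Igf1 was called in neither comparison, with log2 fold changes of 0.46 against control (adjusted p 0.070) and 0.26 against scramble (adjusted p 0.23) by edgeR.

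Counts per gene depend on transcript length, so levels of different genes were compared in TPM, the deposited values scaled by transcript length and library. The ligand transcripts summed to 323 ± 35 TPM in 1C-MIM, 175 ± 13 TPM in scramble and 149 ± 21 TPM in control (SD, n = 3 each). Igf2 made up 78.3 ± 2.5% of that sum in 1C-MIM, 69.6 ± 1.4% in scramble and 68.2 ± 2.0% in control. The groups of 1C-MIM libraries did not overlap with scramble or control in the sum or in the Igf2 share. A two-sided exact permutation test gave p = 0.1 for each of these 4 comparisons, the smallest value that 3 against 3 allows.

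Both receptor genes were higher in 1C-MIM, by similar steps. Igf1r, the signalling receptor, had 99.2, 128 and 147 CPM in 1C-MIM, 77.9, 73.1 and 77.7 CPM in scramble and 79.4, 70.4 and 70.2 CPM in control. Igf2r, the clearance receptor for IGF2, had 235, 246 and 265 CPM in 1C-MIM, 168, 146 and 145 CPM in scramble and 171, 126 and 129 CPM in control. For both genes every 1C-MIM library lay above every scramble and control library, and scramble and control overlapped. The log2 fold changes against control were 0.77 ± 0.12 for Igf1r and 0.81 ± 0.11 for Igf2r, with adjusted p of 0.00067 and 0.00030 by edgeR. Against scramble they were 0.71 ± 0.12 and 0.70 ± 0.11, with adjusted p of 0.0011 and 0.00072 by edgeR. The ratio of Igf2r to Igf1r transcripts in TPM was 2.72 ± 0.40 in 1C-MIM, 2.69 ± 0.19 in scramble and 2.59 ± 0.26 in control, and the two-sided exact permutation p was 0.9 against scramble and 0.6 against control.

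Igfbp4 had the largest fold change of the 10 genes. Its protein blocks IGF action when intact and frees the ligand when it is cut by pappalysin. It measured 489, 613 and 825 CPM in 1C-MIM, 140, 136 and 137 CPM in scramble and 113, 124 and 113 CPM in control. The treated libraries were far above the others and also the most spread, and every scramble library lay above every control library. The log2 fold change was 2.46 ± 0.16 against control, with an adjusted p of 7.0e-06 by edgeR, which placed Igfbp4 65th of 14006 tested genes in order of log2 fold change. Against scramble it was 2.22 ± 0.16, with an adjusted p of 1.3e-05 by edgeR.

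Igfbp5, the binding protein most tied to muscle differentiation, was the most abundant of the 10 genes in every group. It measured 4701, 5550 and 5970 CPM in 1C-MIM, 2383, 2272 and 2087 CPM in scramble and 2162, 2122 and 2013 CPM in control. The 1C-MIM libraries lay above all others, and scramble and control overlapped. Its log2 fold change was 1.37 ± 0.09 against control and 1.27 ± 0.09 against scramble, with adjusted p of 2.1e-06 and 3.3e-06 by edgeR. Ranked by mean TPM over all gene symbols, Igfbp5 stood 48th in 1C-MIM and 172nd in control, and Igfbp4 stood 210th in 1C-MIM and 1411th in control.

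Igfbp3, whose protein is the main IGF carrier in blood, had the lowest mean TPM of the 6 binding protein genes in every group. It had 68.5, 73.6 and 81.5 CPM in 1C-MIM, 32.1, 29.7 and 30.6 CPM in scramble and 30.3, 30.8 and 36.2 CPM in control. The 1C-MIM libraries did not overlap with either group. On the log2 scale Igfbp3 differed by 1.20 ± 0.08 against control and 1.27 ± 0.08 against scramble, with adjusted p of 2.2e-06 and 2.0e-06 by edgeR.

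Igfbp2 was the 1 gene of the 10 called lower. It had 182, 182 and 286 CPM in 1C-MIM, 378, 399 and 370 CPM in scramble and 269, 374 and 439 CPM in control. All 1C-MIM libraries lay below all scramble libraries, but 1C-MIM library 3 lay above control library 1. The log2 fold change was -0.73 ± 0.22 against control and -0.82 ± 0.22 against scramble, with adjusted p of 0.026 and 0.018 by edgeR. The call against control was lost when control library 2 or 3 or 1C-MIM library 1 or 2 was left out, with adjusted p of 0.071, 0.077, 0.081 and 0.075 by edgeR. It was also lost with no filter on low counts (adjusted p 0.057) and with only the 2 groups in the fit (adjusted p 0.062) by edgeR. Against scramble it was lost without 1C-MIM library 1 or 2 or scramble library 2, with adjusted p of 0.056, 0.052 and 0.051 by edgeR.

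Igfbp6, whose protein prefers IGF2 over IGF1, and Igfbp7, a relative that binds IGFs only weakly, were not called. Igfbp6 had 126, 142 and 132 CPM in 1C-MIM, 138, 142 and 137 CPM in scramble and 132, 146 and 141 CPM in control. Its log2 fold change had a 95% interval of -0.17 to 0.04 against control and -0.17 to 0.05 against scramble. Igfbp7 had 311, 263 and 273 CPM in 1C-MIM, 295, 309 and 343 CPM in scramble and 268, 302 and 312 CPM in control. The groups overlapped for both genes. The interval for Igfbp7 was -0.22 to 0.10 against control and -0.32 to 0.000125 against scramble, where the unadjusted p by edgeR was 0.076. Without the 3 libraries numbered 1, Igfbp7 was called lower in 1C-MIM, with log2 fold changes of -0.20 ± 0.04 against control (adjusted p 0.0010) and -0.29 ± 0.04 against scramble (adjusted p 4.0e-05) by edgeR. It was also called lower against scramble when 1C-MIM library 1 alone was left out, at -0.24 ± 0.08 with an adjusted p of 0.043 by edgeR. In the GENCODE annotation of GRCm38, 85 of the 1209 exon bases of Igfbp7 overlap Polr2b on the other strand.

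**Figure D2:**
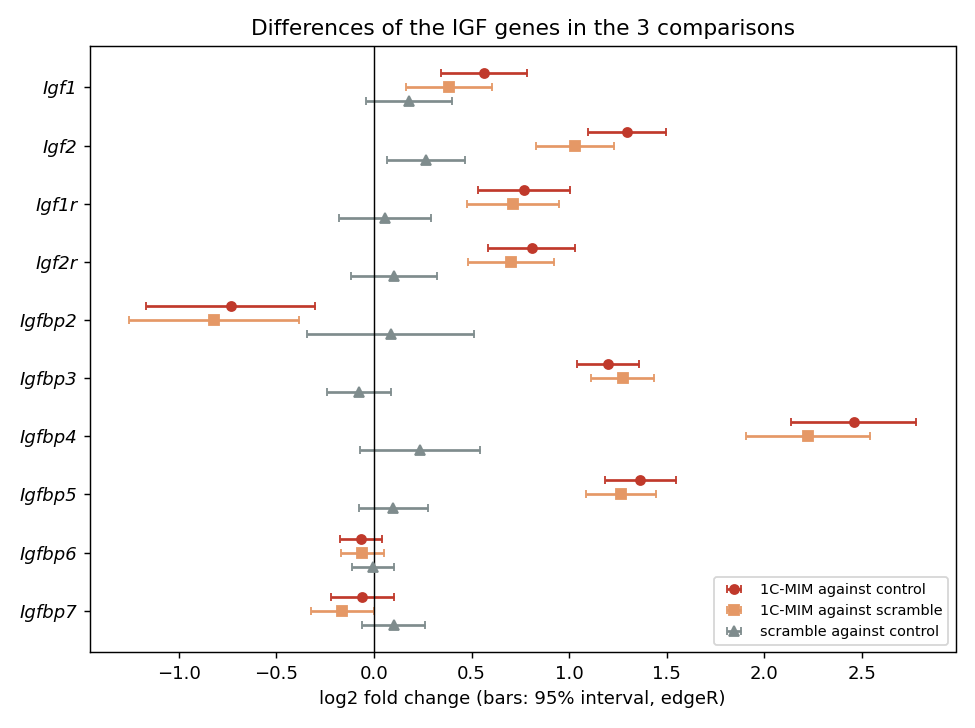
Log2 fold changes of the 10 IGF genes (horizontal axis) in 1C-MIM against control, 1C-MIM against scramble and scramble against control. Points are edgeR estimates and bars are 95% intervals. Igfbp4 stands farthest to the right at 2.46 and 2.22, Igfbp2 lies to the left at -0.73 and -0.82, and the scramble against control estimates lie between -0.08 and 0.27.

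Of the 10 genes, 7 had no overlap between 1C-MIM and control libraries and 8 had none between 1C-MIM and scramble libraries, beside 55.5% and 59.5% of all tested genes. The 2 comparisons share the 1C-MIM libraries. By a threshold of at least 2-fold higher and called, Igf2, Igfbp3, Igfbp4 and Igfbp5 passed in both comparisons, beside 2.83% of all tested genes against control and 2.81% against scramble. Igf2 was near that limit against scramble, at 2.04-fold, and fell below a log2 fold change of 1 with library size alone as the scale (0.996), without 1C-MIM library 1 (0.955) and without scramble library 2 (0.983).

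The make-up of the binding protein transcripts also differed. The 6 genes summed to 2482 ± 297 TPM in 1C-MIM, 1552 ± 35 TPM in scramble and 1457 ± 69 TPM in control. Igfbp5 made up 52.4 ± 1.9% of that sum in 1C-MIM, 34.3 ± 2.0% in scramble and 34.3 ± 3.8% in control. Igfbp4 made up 17.4 ± 2.4% in 1C-MIM, 5.96 ± 0.13% in scramble and 5.40 ± 0.41% in control. Igfbp2 had the opposite pattern, with 9.16 ± 1.49% in 1C-MIM, 25.7 ± 0.7% in scramble and 25.6 ± 4.4% in control. The sum and these 3 shares did not overlap between 1C-MIM and either group, and the two-sided exact permutation p was 0.1, the smallest that 3 against 3 allows. The shares of Igfbp6 and Igfbp7, neither of them called, were also lower in 1C-MIM without overlap, with the same permutation p of 0.1. Igfbp6 made up 5.91 ± 0.68% in 1C-MIM, 9.64 ± 0.10% in scramble and 10.3 ± 0.4% in control. For Igfbp7 the shares were 13.4 ± 2.7%, 23.3 ± 2.1% and 23.1 ± 0.1% in the same order. Shares are parts of 1 sum, so a larger share of some genes lowers that of others. In mean TPM, Igfbp4 was the second most abundant of the 10 genes in 1C-MIM and the sixth in scramble and control, while Igfbp2 was the fifth in 1C-MIM and the second in scramble and control. The full order in 1C-MIM, from high to low, was Igfbp5 (1299 ± 149 TPM), Igfbp4 (437 ± 114), Igfbp7 (327 ± 31), Igf2 (253 ± 24), Igfbp2 (230 ± 63), Igfbp6 (146 ± 9), Igf1 (70.3 ± 13.8), Igfbp3 (42.9 ± 3.6), Igf2r (39.2 ± 2.3) and Igf1r (14.7 ± 2.8). In that order the libraries of Igfbp4 and Igfbp7, of Igf2 and Igfbp2, and of Igfbp3 and Igf2r overlapped, and those of the other neighbours did not. In control the order was Igfbp5 (498 ± 31 TPM), Igfbp2 (376 ± 81), Igfbp7 (336 ± 17), Igfbp6 (150 ± 3), Igf2 (102 ± 17), Igfbp4 (78.5 ± 3.2), Igf1 (47.0 ± 3.4), Igf2r (22.2 ± 4.7), Igfbp3 (18.4 ± 1.7) and Igf1r (8.51 ± 0.90). There the libraries of Igfbp2 overlapped with those of Igfbp7, and those of Igf2r with those of Igfbp3. The scramble libraries had the same order as control, and there the libraries of Igfbp2 and Igfbp7 overlapped.

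The ratio of binding protein to ligand transcripts was 7.80 ± 1.66 in 1C-MIM, 8.89 ± 0.57 in scramble and 9.94 ± 1.64 in control. These ratios overlapped, with two-sided exact permutation p of 0.4 for 1C-MIM against scramble and 0.2 for 1C-MIM against control. Within 1C-MIM, library 1 had the most Igf1 and Igf2 and the least Igfbp4, Igfbp5, Igfbp3, Igf1r and Igf2r, and its ratio was the lowest of the 9 libraries at 6.07. Library 3 of that group had the least Igf1 and the most Igfbp4, with a ratio of 9.39.

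**Figure D3:**
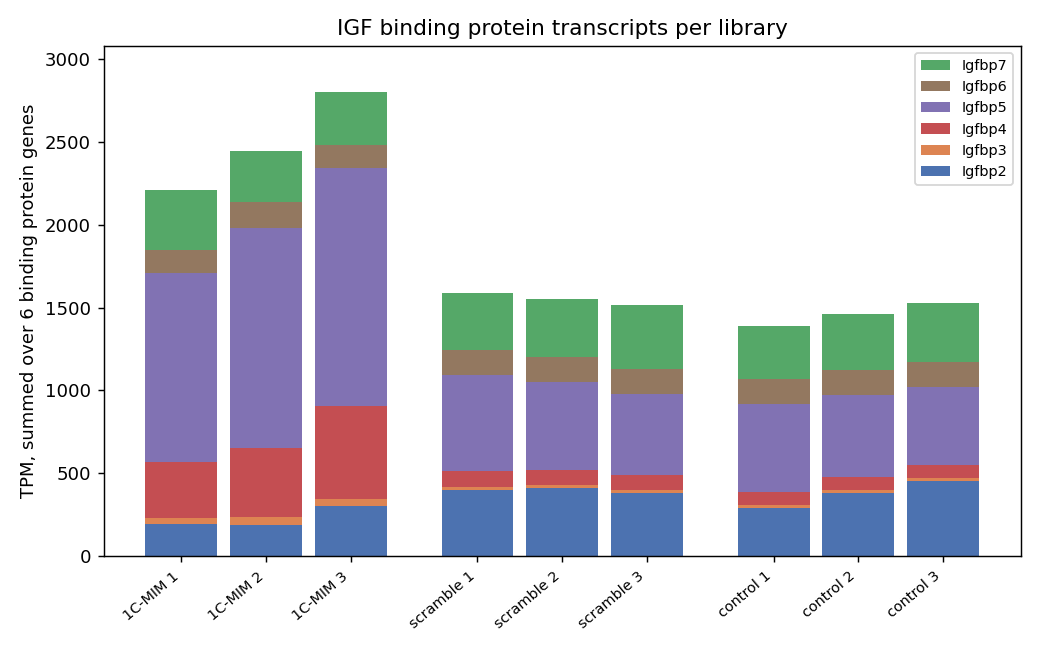
Length-scaled levels (TPM, stacked on a linear axis from 0) of the 6 binding protein genes in each library, with 1C-MIM, scramble and control libraries set side by side. The 1C-MIM bars reach 2207 to 2797 TPM, with Igfbp5 the thickest band, and the scramble and control bars reach 1386 to 1586 TPM with a thicker Igfbp2 band.

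Between scramble and control fibres, edgeR called none of the 10 genes, each with an adjusted p of 1.00, and 0% of the 14006 tested genes. Without adjustment 482 genes had p below 0.05, and DESeq2 called 4 genes, named after their values were seen: Fbln1, Olfml2b, Omd and Sulf2. Igf2 had the largest difference of the 10 genes, a log2 fold change of 0.27 ± 0.10 with an unadjusted p of 0.024. Igf1 and Igfbp4 were the 2 genes whose scramble libraries all lay above the control libraries, with log2 fold changes of 0.18 ± 0.11 and 0.24 ± 0.16, beside 9.09% of all tested genes without overlap. Without the 3 libraries numbered 1, edgeR called Igf2 at 0.31 ± 0.04 (adjusted p 0.00066) and Igf2r at 0.19 ± 0.04 (adjusted p 0.048), among 96 genes in all.

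Among the partners and proteases of the binding proteins, 7 of 11 listed genes were tested. Of these, 5 were called higher in 1C-MIM against control and 1 lower, with a median log2 fold change of 1.52, beside 22.9% of all tested genes called higher and 24.3% lower. The counts against scramble were the same, beside 22.9% and 23.2%. Htra1, a serine protease that cuts IGFBP5, averaged 567 ± 28 CPM in 1C-MIM, against 230 ± 8 CPM in control, with a log2 fold change of 1.30 ± 0.05 (adjusted p 1.3e-07 by edgeR). Pappa, the pappalysin that cuts IGFBP4, had 6.02, 6.97 and 8.04 CPM in 1C-MIM, 1.88, 2.29 and 1.90 CPM in scramble and 2.33, 1.98 and 3.03 CPM in control. Its paralogue Pappa2, which cuts IGFBP5, had 8.03, 10.8 and 11.6 CPM in 1C-MIM, 3.19, 2.32 and 2.54 CPM in scramble and 2.99, 2.51 and 2.47 CPM in control. Both pappalysin genes were thus low in level, and neither overlapped between 1C-MIM and the other groups, with log2 fold changes of 1.52 ± 0.17 and 1.94 ± 0.17 against control. Adam12, a metalloprotease that in human cuts IGFBP3 and IGFBP5, had a log2 fold change of 1.63 ± 0.14 against control. The adjusted p by edgeR was 4.9e-05 for Pappa, 8.8e-06 for Pappa2 and 2.1e-05 for Adam12.

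The stanniocalcins Stc1 and Stc2, named after their values were seen, encode inhibitors of the pappalysins and moved in opposite directions. Stc1 had 5.95, 21.7 and 64.6 CPM in 1C-MIM, 0.939, 0.648 and 1.02 CPM in scramble and 0.503, 0.681 and 1.01 CPM in control. It differed over 10-fold between 1C-MIM libraries, with a log2 fold change of 5.38 ± 1.01 against control (adjusted p 0.0042 by edgeR). Stc2 had 3.03 to 3.06 CPM in 1C-MIM, 4.48 to 5.73 CPM in scramble and 4.22 to 5.51 CPM in control, with a log2 fold change of -0.69 ± 0.14 against control (adjusted p 0.0022 by edgeR). Adam9 was tested and not called. Igfbp1, Igfbpl1, Igfals and Adam28 were not tested, and Igfbpl1 and Adam28 had 0 counts in every library.

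Downstream of IGF1R the differences were smaller and went both ways. Of 13 tested genes among the insulin receptor family, adaptors and brakes, 6 were called higher and 1 lower in 1C-MIM against control, with a median log2 fold change of 0.19. Against scramble, 5 were higher and 1 lower, with a median of 0.10. The shares of all tested genes were 22.9% higher and 24.3% lower against control and 22.9% and 23.2% against scramble. Socs3, which encodes a feedback inhibitor of cytokine receptors, differed by 0.52 ± 0.10 against control, and the adaptor gene Irs2 by 0.32 ± 0.08. Shc1, which encodes the adaptor leading to Ras, was the 1 gene called lower, at -0.23 ± 0.04, and Socs2 differed by 0.19 ± 0.05. The adjusted p by edgeR was 0.0013 for Socs3, 0.0061 for Irs2, 0.00088 for Shc1 and 0.0061 for Socs2. The insulin receptor gene Insr, named after its values were seen, had an adjusted p by edgeR of 0.054 against control and 0.049 against scramble, at log2 fold changes of 0.28 ± 0.11 and 0.29 ± 0.11.

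All 28 listed genes of PI3K, AKT, mTOR and FoxO were tested, and 10 were called higher and 3 lower in 1C-MIM in each comparison, with medians of 0.06 against control and 0.07 against scramble. That is 35.7% higher and 10.7% lower, beside 22.9% and 24.3% of all tested genes against control and 22.9% and 23.2% against scramble. The regulatory subunit gene Pik3r2 averaged 151 ± 2 CPM in 1C-MIM, against 97.5 ± 2.3 CPM in control, with a log2 fold change of 0.63 ± 0.04. Pik3r1 differed by 0.46 ± 0.06, Phlpp1, which encodes a phosphatase of AKT, by 0.50 ± 0.07, and the transcription factor gene Foxo4 by 0.35 ± 0.05. The adjusted p by edgeR was 1.5e-06 for Pik3r2, 0.00017 for Pik3r1, 0.00014 for Phlpp1 and 0.00028 for Foxo4. Among the genes called lower, Rps6kb1, which encodes a kinase downstream of mTOR, differed by -0.42 ± 0.06 and Foxo1 by -0.51 ± 0.09, both named after their values were seen. No difference was called for Akt1, Mtor or Rheb, also named after their values were seen.

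Of the genes known to act on IGF transcripts, 9 of 10 were tested, and 2 were called higher and 3 lower in each comparison, with a median log2 fold change of -0.23 against control and -0.09 against scramble. That is 22.2% of the tested list higher and 33.3% lower, beside 22.9% and 24.3% of all tested genes against control and 22.9% and 23.2% against scramble. Hmga2, which encodes a chromatin protein of growing cells, averaged 36.8 ± 2.0 CPM in 1C-MIM, against 103 ± 19 CPM in control, with a log2 fold change of -1.48 ± 0.13. Plagl1, an imprinted zinc finger gene whose protein binds the Igf2 and H19 enhancers in mouse, rose to 2.39, 1.48 and 1.92 CPM in 1C-MIM, against 0.409, 0.433 and 0.119 CPM in control. The growth hormone receptor gene Ghr differed by 0.43 ± 0.05, and Igf2bp2, whose protein binds Igf2 mRNA, by -0.48 ± 0.08. The adjusted p by edgeR was 1.6e-05 for Hmga2, 0.00018 for Plagl1, 5.8e-05 for Ghr and 0.00053 for Igf2bp2. H19, the imprinted noncoding neighbour of Igf2 named after its values were seen, had 8210, 7923 and 8304 CPM in 1C-MIM, 10952, 10284 and 9925 CPM in scramble and 10577, 10511 and 9322 CPM in control. All 1C-MIM libraries were below all others, with a log2 fold change of -0.32 ± 0.07 against control (adjusted p 0.0052 by edgeR), while Igf2 was higher.

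For the mannose 6-phosphate pathway and receptors of binding proteins, 9 of 10 listed genes were tested, and 4 were called higher and 1 lower in each comparison, with a median log2 fold change of 0.04 against control and 0.11 against scramble, beside 22.9% higher and 24.3% or 23.2% lower among all tested genes. Lrp1, an endocytic receptor that also binds IGFBP3, had 4147, 4726 and 4758 CPM in 1C-MIM, 2654, 2509 and 2555 CPM in scramble and 2296, 2284 and 2305 CPM in control. The log2 fold change was 0.99 ± 0.07 against control, with an adjusted p of 2.3e-06 by edgeR. Nagpa, which encodes the enzyme that uncovers the mannose 6-phosphate tag, differed by 0.62 ± 0.07, Gnptg, a subunit of the enzyme that adds the tag, by 0.24 ± 0.06, and Tmem219, an IGFBP3 receptor gene, by -0.36 ± 0.09. The adjusted p by edgeR was 3.9e-05 for Nagpa, 0.0069 for Gnptg and 0.0077 for Tmem219. The fourth gene called higher, named after its values were seen, was M6pr against control, at 0.19 ± 0.05, and Gga3 against scramble, at 0.29 ± 0.08. In scramble against control, no gene of these 5 lists was called by edgeR.

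**Figure D4:**
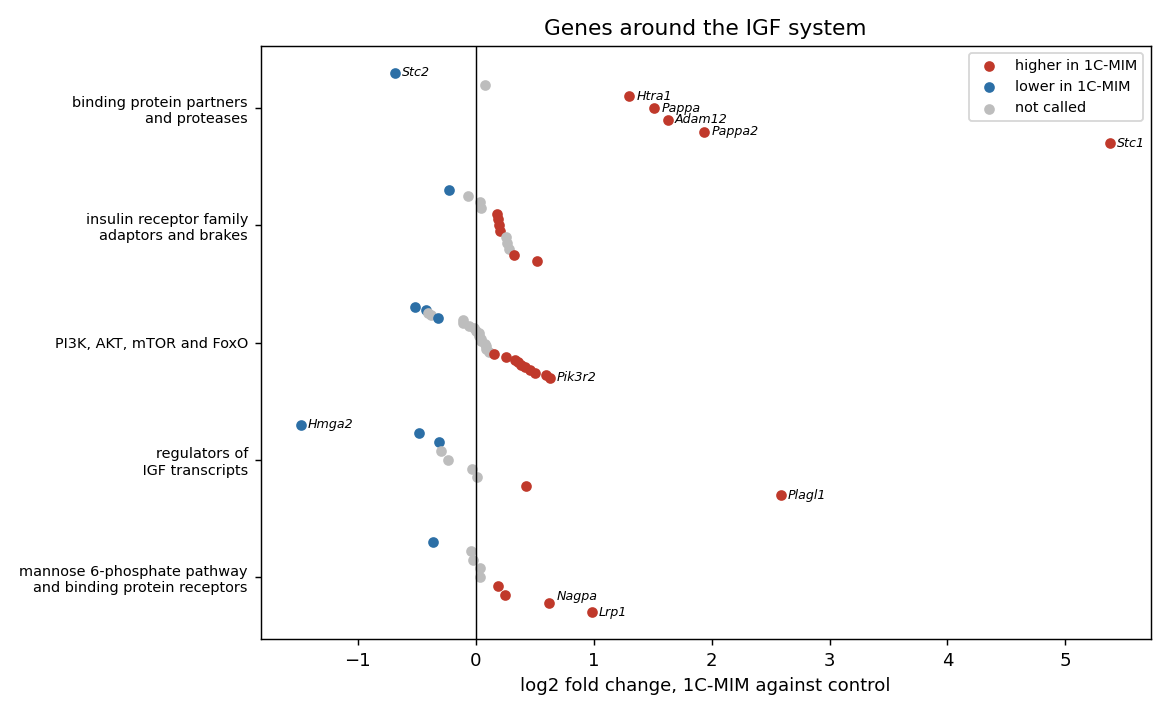
Log2 fold change in 1C-MIM against control (horizontal axis) of the tested genes in 5 lists around the IGF system, with genes spread vertically within a list for legibility. Red points were called higher, blue lower and grey not called by edgeR, and called genes past 0.6 in size are named. Of the partners and proteases, 5 red points lie to the right of 0 and Stc2 to the left, while the PI3K, AKT, mTOR and FoxO genes lie between -0.51 and 0.63.

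Protein-coding genes lying next to the 10 did not all move as they did. Igfbp2 and Igfbp5 are neighbours on chromosome 1 and face each other on opposite strands, and they were called in opposite directions in 1C-MIM. In the RefSeq annotation of GRCm38.p6, Igfbp4 on chromosome 11 lies between Top2a, a gene of dividing cells with a log2 fold change of -0.97 ± 0.11, and Tns4, at 1.24 ± 0.33 against control. Their adjusted p by edgeR were 8.0e-05 and 0.0094, and Tns4 was low, at 0.916 to 2.29 CPM in 1C-MIM, against 0.495 to 0.818 CPM in control. The protein-coding neighbours of Igf2 on chromosome 7, Mrpl23 and Ins2, were not called, with log2 fold changes of 0.21 ± 0.10 and -0.44 ± 0.43. The noncoding neighbour H19 was called lower, as given above. Pmch, next to Igf1 on chromosome 10, was called lower, at -0.98 ± 0.16 with an adjusted p of 0.00053 by edgeR. Tns3 beside Igfbp3 on chromosome 11 was not called either, at -0.07 ± 0.06. Synm, next to Igf1r on chromosome 7, was called higher, at 1.05 ± 0.18 with an adjusted p of 0.00062 by edgeR.

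Across the 9 libraries, the genes whose log2 CPM followed each ligand and receptor most closely were ranked by Pearson's r among 10503 genes averaging 5 CPM or more, as a description in which the group difference shared by many genes takes part. For Igf2 they were Dbh, Pmepa1 and Rbbp4, each at r = 0.996, and 1324 genes exceeded 0.9. For Igf2r they were Daam2 and Rreb1, each at 0.994, and Hsph1 at 0.993, and for Igf1r Sema3d at 0.993, Tpp2 at 0.990 and Tcf4 at 0.989, with 1179 and 726 genes above 0.9. Igf1 had far fewer close followers, 111 genes above 0.9, led by Atn1 at 0.982, Raly at 0.981 and Ski at 0.972. Pearson's r does not measure the size of a difference. Against control, Dbh was 8.21-fold, Pmepa1 1.86-fold and Rbbp4 1.14-fold in 1C-MIM, beside 2.46-fold for Igf2. Tpp2 was 1.09-fold, beside 1.70-fold for Igf1r.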

How the data were processed

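Differentiated C2C12 fibres were profiled by mRNA-seq in 9 libraries, made with RNeasy-isolated RNA and a SMARTer kit per the labels' protocols. STAR, Salmon 1.5.2, featureCounts (Subread 2.0.1), StringTie 2.2.1 and build GRCm39 are listed, without roles, in the submitters' processing notes. Whether counting used strand is not stated there. Per the file headers, the authors deposited counts, FPKM and TPM values for 33984 RefSeq transcripts. The deposited counts are whole numbers, not normalized. The deposited FPKM values served only to recover transcript lengths, and the deposited TPM values gave levels between genes.

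Each gene was represented by its transcript with the highest mean count. Genes passing filterByExpr (14006) were tested with edgeR 4.0.16 (quasi-likelihood, robust, TMM, all 9 libraries in 1 fit, limma 3.58.1, R 4.3.3) with Benjamini-Hochberg adjustment, called below 0.05. CPM use the TMM-scaled library size. The 10057 untested genes held 0.0280% of counts. A 95% interval is 1.96 SE to either side. That multiplier assumes a normal distribution, so with few libraries the intervals are narrower than edgeR's test implies. The test was also run on simulated data with known changes and the same relative spread for every gene. That run cannot show how the test performs on these libraries. Intervals cover the spread between these libraries only.

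Members and lists were chosen with earlier results of these data known. All 10 IGF genes are named, and for each further list the 4 genes with the smallest p against control. For each ligand and receptor, the 3 genes with the highest correlation are named, leaving out predicted genes. Other named genes are said to be chosen after their values were seen, or lie next to a member. Not every gene of the lists is reported here by name.

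In scramble and control, same-numbered libraries deviated together (r = 0.48, 0.21 and 0.17). Scramble library 2, however, deviated more with control library 3 (r = 0.24) than with control library 2. The labels do not say what the numbers mark, and the main test did not pair libraries. With the replicate number added to the fit (the replicate block), 0 genes were called in scramble against control, as without it. Alternatives were other scalings, filters, transcripts and tools (DESeq2 1.42.0, limma-voom), single libraries left out, the block, and, chosen after seeing the data, the removal of all libraries numbered 1.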

Additional observations from a re-analysis of the deposited data

How the results depend on the processing

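Under 21 other processing settings and 1 chosen after seeing the data, Igf2, Igf1r, Igf2r, Igfbp3, Igfbp4 and Igfbp5 kept their direction and their calls in 1C-MIM against both groups, and no IGF gene that was called changed direction. Against control the log2 fold change ran between 2.24 and 2.62 for Igfbp4, 1.29 and 1.48 for Igfbp5 and 1.21 and 1.41 for Igf2. The fragile calls were Igfbp2 and Igf1. Igfbp2 lost its call against control in 8 of these 22 settings and against scramble in 5, and Igf1 lost its call in 1 and 5. The number of IGF genes called lower against control was 0 with no filter on low counts, 0 with only the 2 groups in the fit, 0 at an adjusted p below 0.01 and between 0 and 1 when single libraries were left out. Against scramble it was 0 at an adjusted p below 0.01 and between 0 and 1 when single libraries were left out. The cause was not tested. Without the libraries numbered 1 it stayed at 1 in both comparisons, but the gene was Igfbp7 in place of Igfbp2.

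With every transcript as its own row, which tests more rows, 10158 were called against control and 9834 against scramble. In scramble against control, DESeq2 called 4 genes, edgeR called between 0 and 3 when single libraries were left out (3 without control library 1, namely Dynap, Fbln7 and Omd) and 96 without the libraries numbered 1, including 2 IGF genes that were higher. Same-numbered 1C-MIM libraries did not clearly pair with control (r = 0.19, 0.084 and 0.10) or scramble (0.15, 0.035 and 0.028), and not every library correlated best with its own number. With the replicate block, 7398 and 7309 genes were called against control and scramble, and 7 IGF genes higher and 1 lower in each, as without it. It changed no call of an IGF gene.

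The number of libraries, 3 per group, limits the single-gene intervals, and the smallest exact permutation p for any TPM share was 0.1. Igf2 and Gm49394 share exon bases on the same strand that these counts do not separate. Igfbp7 and Polr2b share exon bases on opposite strands, which are separated only if counting used strand.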

Other observations

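Igf2os, an antisense gene at the Igf2 locus named after its values were seen, had 144, 94 and 116 counts in the 1C-MIM libraries, 12, 5 and 8 counts in the scramble libraries and 11, 10 and 8 counts in the control libraries. It averaged 4.07 ± 0.92 CPM in 1C-MIM, 0.273 ± 0.103 CPM in scramble and 0.298 ± 0.055 CPM in control (SD, n = 3 each), and the 1C-MIM libraries did not overlap with the others. The log2 fold change was 3.76 ± 0.28 against control and 3.87 ± 0.29 against scramble, with adjusted p of 3.4e-06 and 3.7e-06 by edgeR, while Igf2 itself had 1.30 ± 0.10 and 1.03 ± 0.10. In the GENCODE annotation of GRCm38, Igf2os shares 98 of the 5723 exon bases of Igf2 on the other strand. Without knowing whether counting used strand, reads of the 2 genes in those bases cannot be told apart, and the part of such reads in the Igf2os counts was not tested.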
